A study of Mus musculus with 36 samples.

Results

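Interferon-stimulated genes are the genes that cells switch on when type I interferon reaches its receptor, and 35 of them were followed here in mouse blood. Each gene was represented by a probe set (the group of array probes summarised as 1 value) annotated to that gene alone, and where there were several, by the one whose mean over the 36 arrays was highest. By this rule 33 of the 35 genes had a probe set, out of 18193 genes named on the array, and 30 were bright enough to be tested, out of 11353. Isg15, whose set is shared with another symbol, and Ifi44 had no usable set, and Mx2, Oas2 and Oasl1 lay below the brightness limit at mean log2 levels of 2.52, 2.58 and 2.53.

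The blood came from 18 male mice aged 8 weeks, 3 each of the inbred strains C57Bl/6J, 129S1/ImJ, FVB/NJ, A/J, DBA/2J and C3H/HeJ, and the labels name no treatment. Nothing says whether mice of a strain shared a litter, so p-values measure only the spread between these mice. The animals had been bought at 7 weeks and kept 1 per cage for 1 week. Each mouse gave 1 array of whole RNA and 1 array of GLOBINclear RNA, for which 10 µg of the same total RNA had been passed through a kit that captures alpha and beta globin mRNA. Whole blood mixes red cell precursors, platelets and white cells, so fewer cells of a type and less RNA per cell cannot be told apart.

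Type I interferons bind the receptor formed by Ifnar1 and Ifnar2, and the Janus kinases Jak1 and Tyk2 then pass the signal on by phosphorylation. Stat2 and Irf9 take part in the complex that then binds the interferon-stimulated response element in target promoters. The targets include cytoplasmic RNA sensors, the RNA-degrading oligoadenylate synthetase system, the IFIT proteins that bind foreign RNA, and Irf7, a factor that amplifies interferon production. In healthy animals a low tonic interferon signal is known to keep some of these genes on without infection.

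The response element was looked for in the promoters of the members as the letters GAAANNGAAA, on both strands (TTTCNNTTTC on the other), in RefSeq windows of build GRCm38.p6 that reach from 250 bases before to 50 bases after a gene's start. A window was found for 25 of the 35 genes, and 11 of the 25 (44%) held the letters at least once, against 3.44% of all 32851 windows and 3.99% of all 27025 genes with a window. Among the members that differed between strains in the test given below, 3 of 8 held them, and among the tested members that did not, 7 of 14. The stretches below are 100 bases each from Ifit1, Oas1a and Oas3, which differed between strains, and from Bst2 and Rsad2, which did not pass, with each match in capitals.
Ifit1: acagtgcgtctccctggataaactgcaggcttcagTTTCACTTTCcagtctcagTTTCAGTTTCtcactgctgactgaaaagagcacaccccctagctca
Oas1a: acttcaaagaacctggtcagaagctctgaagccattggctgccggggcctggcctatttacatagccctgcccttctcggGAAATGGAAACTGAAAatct
Oas3: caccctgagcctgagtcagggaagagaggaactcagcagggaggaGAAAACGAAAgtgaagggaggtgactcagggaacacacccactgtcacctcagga
Bst2: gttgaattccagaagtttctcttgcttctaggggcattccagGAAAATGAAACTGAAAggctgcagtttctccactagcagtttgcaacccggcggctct
Rsad2: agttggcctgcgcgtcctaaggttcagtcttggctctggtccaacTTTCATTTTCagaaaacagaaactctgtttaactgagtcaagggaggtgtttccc
The Ifit1 stretch is chr19:34640750-34640849 on the plus strand. The Oas1a stretch is chr5:120907526-120907625, the Oas3 stretch chr5:120777680-120777779, the Bst2 stretch chr8:71537545-71537644 and the Rsad2 stretch chr12:26456518-26456617, all on the minus strand and read 5′ to 3′. The Ifit1 stretch holds 2 separate matches, the Oas1a and Bst2 stretches 2 overlapping ones, and the Oas3 and Rsad2 stretches 1. The last 19 bases of the Oas1a stretch and the last 5 of the Oas3 stretch lie within the annotated gene, and the others lie before it. These windows belong to the reference genome and not to the strains studied. Irf7, Oasl2, Ifit2, Parp12 and Xaf1 had no match in their windows, which says only that these letters are not there.

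All values below are the deposited log2 expression values. The arrays had like medians (2.86 to 2.94 in whole and 2.78 to 2.85 in GLOBINclear RNA), whereas the bright end, the 95th percentile, lay at 4.96 to 5.70 in whole RNA and at 6.22 to 6.84 in GLOBINclear RNA. The highest value on an array was 14.31 to 15.63, so levels near 3 lie close to the lower end of the scale and those above 13 close to its top. The lowest correlation over probe sets between arrays of 1 group was that of mice 1 and 3 of C57Bl/6J, at 0.932 in GLOBINclear and 0.95 in whole RNA, and mice 1 and 3 of 129S1/ImJ correlated at 0.957 in GLOBINclear RNA. The mean difference between the 3′ and 5′ control sets of beta-actin and Gapdh, which is high where RNA is shortened, was 0.13 ± 0.18 (SD, n = 18) in whole and 1.17 ± 0.20 in GLOBINclear RNA.

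The first comparison asked which members differed between the 6 strains. On the average of both arrays of each mouse, 10 of 30 members (33.3%) differed by limma's F test at an adjusted p under 0.05, where 11.4% of all 22518 tested probe sets did. They were Irf7, Oasl2, Ifit1, Parp12, Usp18, Xaf1, Oas1a, Ifi27, Oas3 and Ifit2. In whole RNA alone 3 members passed, Irf7, Ifit1 and Ifi27 (background 4.32%), and in GLOBINclear RNA alone 10 passed (background 11.2%). The median range between the lowest and the highest strain mean was 0.44 on the log2 scale over the members and 0.22 over all tested probe sets. Brighter probe sets were called more often: above a mean of log2 4, 7 of 11 members (63.6%) passed, against 39.2% of all probe sets there.

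**Figure D1:**
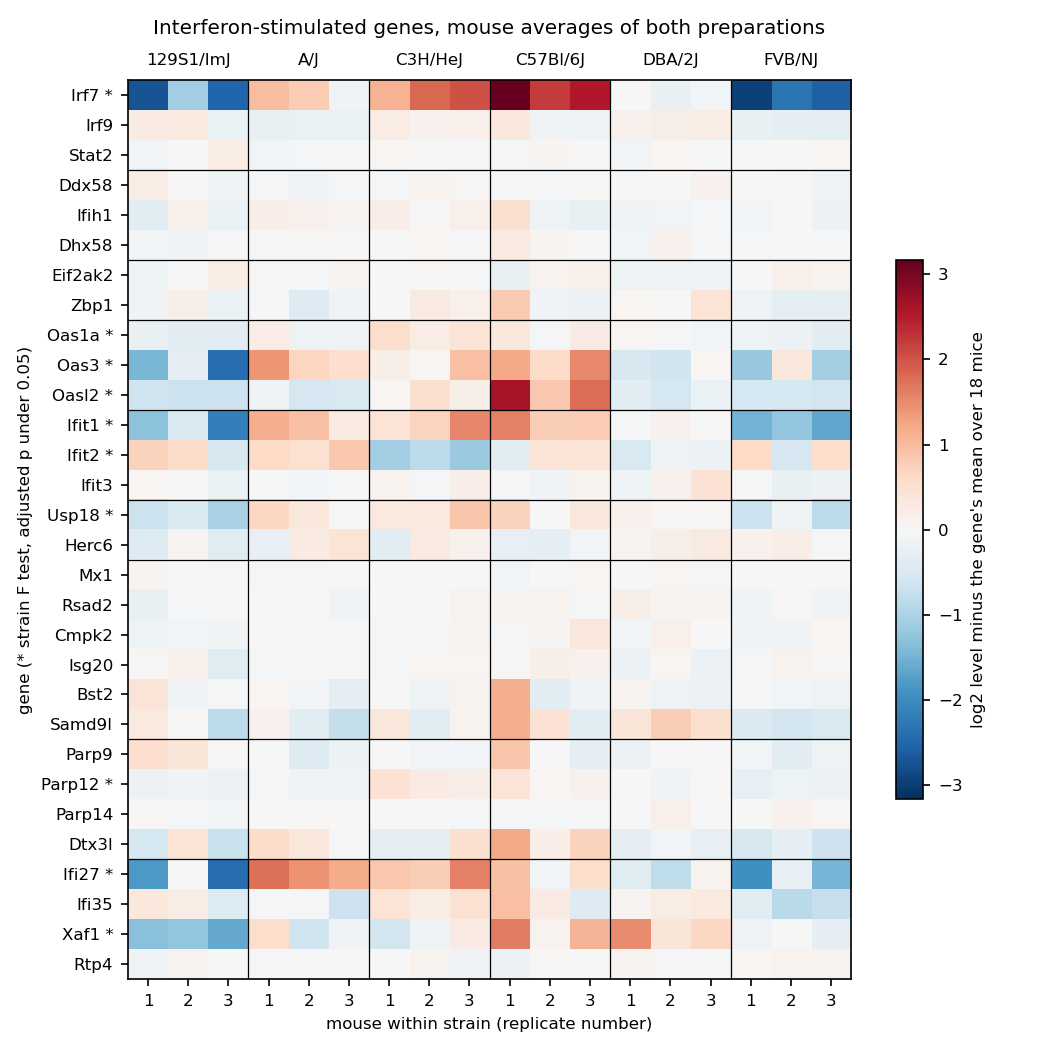
Level of each of the 30 tested members (rows, in order of role) in each of the 18 mice (columns), as the log2 mouse average minus that gene's mean over all mice, with a star on the 10 members that passed the strain F test. Irf7 and Ifit1 run from blue in 129S1/ImJ and FVB/NJ to red in C57Bl/6J, while rows such as Mx1, Stat2 and Parp14 stay pale in every mouse.

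Irf7 (chromosome 7, 141263183 to 141266499), the factor that amplifies interferon production, separated the strains most widely among the members. In whole RNA its log2 levels were 1.86, 3.82 and 2.57 in the 129S1/ImJ mice and 1.96, 2.40 and 2.51 in the FVB/NJ mice. They were 4.73, 4.89 and 4.21 in DBA/2J, 5.99, 5.94 and 4.60 in A/J, 6.13, 6.99 and 6.78 in C3H/HeJ, and 8.33, 7.31 and 7.66 in C57Bl/6J. The C57Bl/6J mice thus lay above all other mice, and the ranges of 129S1/ImJ and FVB/NJ overlapped at the bottom. GLOBINclear RNA gave the same order of the highest 3 strains, with 9.70, 8.79 and 9.08 in C57Bl/6J, 7.79, 8.34 and 8.96 in C3H/HeJ, and 7.67, 7.35 and 6.87 in A/J. In this preparation C57Bl/6J (lowest 8.79) and C3H/HeJ (highest 8.96) overlapped. There the DBA/2J mice had 6.95, 6.32 and 7.32, the 129S1/ImJ mice 4.39, 5.70 and 4.10, and the FVB/NJ mice 3.83, 4.70 and 4.04. The strain means of the mouse averages ran from 3.24 ± 0.33 (SD, n = 3) in FVB/NJ to 8.48 ± 0.49 in C57Bl/6J, a range of 5.24 on the log2 scale (limma F test, adjusted p = 1.96e-06). All 3 FVB/NJ mice lay below the array medians in whole RNA. Because the low end of several members was near background, ranges are given on the log2 scale and not as folds. The call held in all 30 alternatives, with adjusted p from 2.35e-07 to 2.36e-05, though dropping the mouse block could not alter this test. Irf9 and Stat2, which act together at the response element, showed no such range. Irf9 lay between 3.60 and 4.06 by strain (adjusted p = 0.0815), and Stat2 stayed near the bottom of the scale, at 2.72 to 3.45 over all arrays.

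In the oligoadenylate synthetase family, whose products activate RNase L to cut RNA, all 3 tested genes differed between strains. Oas3 (chromosome 5, 120753098 to 120777684) had mouse averages of 4.41, 5.56 and 3.44 in 129S1/ImJ, 4.66, 6.20 and 4.78 in FVB/NJ, and 5.35, 5.22 and 5.91 in DBA/2J. It had 6.03, 5.92 and 6.79 in C3H/HeJ, 7.23, 6.52 and 6.37 in A/J, and 7.05, 6.45 and 7.38 in C57Bl/6J. The range of 2.49 passed the F test (adjusted p = 0.017), and the 3 strains with the lower means overlapped one another. Oasl2 (chromosome 5, 114896926 to 114912245), an OAS-like protein with ubiquitin-like domains, stood alone in C57Bl/6J. Its mouse averages there were 6.24, 4.50 and 5.41, against 3.69, 4.15 and 3.82 in C3H/HeJ and 2.95 to 3.51 in all 12 mice of the other 4 strains. The range of 2.41 had an adjusted p of 0.00021, with its low end in 129S1/ImJ close to the array medians on every array. Oas1a differed by less, from 3.21 ± 0.05 in 129S1/ImJ to 3.90 ± 0.16 in C3H/HeJ (adjusted p = 0.00531), and in whole RNA it lay between 3.02 and 3.44 in every mouse.

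Of the IFIT family, whose proteins bind viral RNA ends, Ifit1 and Ifit2 differed between strains in different ways. Ifit1 (chromosome 19, 34640889 to 34650009) had mouse averages of 3.55, 3.80 and 3.42 in FVB/NJ and 3.75, 4.56 and 2.89 in 129S1/ImJ. It had 5.04, 5.20 and 5.07 in DBA/2J, 6.20, 5.98 and 5.34 in A/J, 5.49, 5.75 and 6.61 in C3H/HeJ, and 6.65, 5.84 and 5.87 in C57Bl/6J. The mice of FVB/NJ and 129S1/ImJ lay below all others, and the range was 2.53 (adjusted p = 0.000385), with the whole-RNA values of FVB/NJ, 2.66 to 2.89, close to the array medians. Ifit2 (chromosome 19, 34550550 to 34576534) was instead lowest in C3H/HeJ, with 5.47, 5.71 and 5.38, below every mouse of the other strains (6.01 to 7.40). Its highest strain mean was that of A/J (7.20 ± 0.18). The Ifit2 call was close to the threshold (adjusted p = 0.041) and was lost in 18 of 30 alternatives, 13 of them with 1 mouse left out and up to an adjusted p of 0.145. Ifit3 stayed between 2.92 and 4.02 on all arrays and did not pass (adjusted p = 0.618).

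Ifi27 and Xaf1 added wide ranges of their own. Ifi27 (chromosome 12, 103434189 to 103440245), a mitochondrial membrane protein, had mouse averages of 7.77, 7.46 and 7.20 in A/J, 6.88, 6.82 and 7.64 in C3H/HeJ, and 6.95, 5.95 and 6.59 in C57Bl/6J. It had 5.65, 5.23 and 6.14 in DBA/2J, 4.09, 5.78 and 4.56 in FVB/NJ, and 4.20, 6.03 and 3.62 in 129S1/ImJ. A/J, not C57Bl/6J, was thus highest, and 1 mouse each of 129S1/ImJ and FVB/NJ reached the level of DBA/2J (range 2.86, adjusted p = 0.00571). Xaf1 (chromosome 11, 72301461 to 72313733), which binds the apoptosis inhibitor XIAP, had 3.50, 3.59 and 3.21 in 129S1/ImJ, below all other mice. The other strain means were 4.67 ± 0.42 in C3H/HeJ, 4.67 ± 0.17 in FVB/NJ, 4.77 ± 0.59 in A/J, 5.67 ± 0.58 in DBA/2J and 5.75 ± 0.77 in C57Bl/6J (adjusted p = 0.0052).

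A second Xaf1 probe set, dimmer on average and therefore not chosen by the rule, gave another pattern and was picked out after its values were seen. Its mean was 10.15 in DBA/2J, 4.17 in 129S1/ImJ and between 3.42 and 3.54 in the other 4 strains (adjusted p = 8.7e-11). The sets agree on neither the highest nor the lowest strain, so the order of strains for Xaf1 depends on the set. For Ifi27 the second set gave the same highest and lowest strains, A/J at 6.85 and 129S1/ImJ at 4.22 (adjusted p = 0.00457).

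Usp18 and Parp12 completed the list at lower levels. Usp18 (chromosome 6, 121245906 to 121270917), the protease that removes ISG15 from proteins and restrains Ifnar2 signalling, had mean averages of 2.85 ± 0.28 in 129S1/ImJ and 3.04 ± 0.36 in FVB/NJ. The other strains lay between 3.66 ± 0.04 in DBA/2J and 4.08 ± 0.33 in C3H/HeJ (adjusted p = 0.00397). Parp12 (chromosome 6, 39086412 to 39118349), an ADP-ribosyltransferase, was highest in C3H/HeJ at 3.38 ± 0.13 and lowest in FVB/NJ at 2.86 ± 0.05 (adjusted p = 0.00137). Both lay near the bottom of the scale in whole RNA, with values of 2.58 to 3.51 for Usp18 and 2.82 to 3.22 for Parp12 over the 18 mice.

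**Figure D2:**
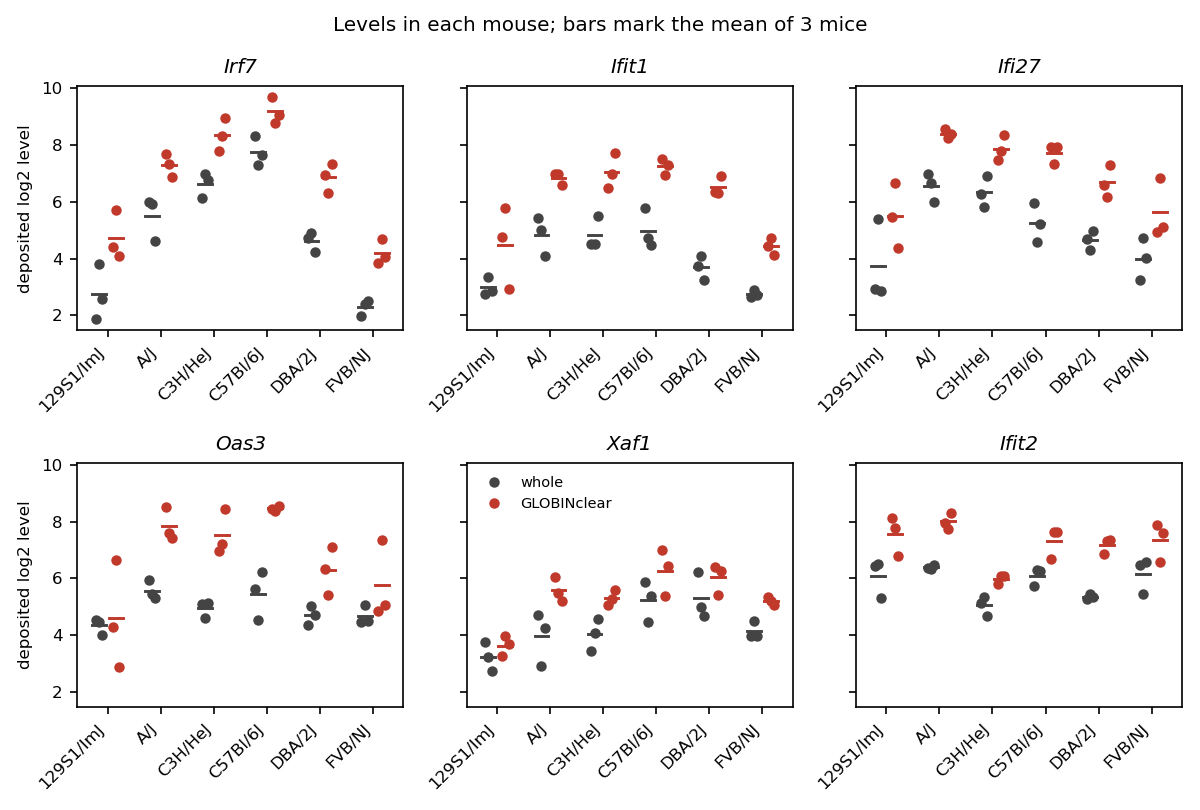
Deposited log2 level of 6 members in whole RNA (dark) and GLOBINclear RNA (red), with 1 point per mouse and a bar at the mean of each strain's 3 mice. Irf7 and Ifit1 are low in 129S1/ImJ and FVB/NJ in both preparations, Ifi27 is highest in A/J, Xaf1 lowest in 129S1/ImJ and Ifit2 lowest in C3H/HeJ.

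The other 20 members did not pass the F test. The RNA sensors Ddx58 (RIG-I), Ifih1 (MDA5) and Dhx58 lay between 2.57 and 4.17 on all arrays, and none passed, with 0 of 3 at an unadjusted limma p under 0.05 as well. Eif2ak2, the kinase PKR, and Zbp1, a sensor of Z-form nucleic acid, did not pass either (adjusted p = 0.87 and 0.56, 0 of 2 unadjusted). Of the 6 tested antiviral effectors 0 passed, and 1 had an unadjusted p under 0.05. Among these, Mx1, a GTPase that blocks viral replication, was flat at 3.07 to 3.37 over all arrays. Rsad2 (viperin) and Isg20 (an RNA exonuclease) lay at the other end, at 13.33 to 13.97 and 12.82 to 13.70, close to the top of the scale. Cmpk2 stayed at 2.98 to 3.85. Bst2 (tetherin), which holds budding virions on the cell, lay between 3.42 and 5.52 over all arrays, highest in mouse 1 of C57Bl/6J in both preparations, and did not pass (adjusted p = 1). Samd9l, a restrictor of viral translation, ran from 3.70 ± 0.07 in FVB/NJ to 4.76 ± 0.20 in DBA/2J without passing (adjusted p = 0.229). Dtx3l, a ubiquitin ligase, and its partner Parp9 had adjusted p-values of 0.10 and 0.44. Herc6, the ISG15 ligase of mice, Parp14, Ifi35 and Rtp4 did not pass either (adjusted p = 0.476, 0.671, 0.17 and 0.963). For 3 of these genes a second, dimmer probe set, picked out after its values were seen, passed the F test: that of Dtx3l (adjusted p = 0.0274), highest in C57Bl/6J at 4.84 and lowest in DBA/2J at 3.56, that of Ifi35 (0.0415), from 4.47 in FVB/NJ to 5.84 in DBA/2J, and that of Rtp4 (0.0424), from 2.52 in FVB/NJ to 3.79 in C3H/HeJ. Whether these 3 genes differed between strains thus depended on the probe set. With all sets of a gene averaged Dtx3l and Rtp4 were called, and so was Cmpk2.

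In a further test on the mouse averages, each strain was compared with the mean of the remaining 5. The 6 contrasts share mice and are not independent. In 129S1/ImJ 8 members were lower (background 3.02% lower), namely Irf7, Oas1a, Oas3, Oasl2, Ifit1, Usp18, Ifi27 and Xaf1, and 0 were higher (background 2.76%), with 1 higher at an unadjusted limma p under 0.05. Irf7 was lower there by 2.53 ± 0.32 (SE), from 6.27 in the other strains to 3.74 (adjusted p = 0.000198). Xaf1 was lower by 1.67 ± 0.29 and Ifit1 by 1.59 ± 0.29 (adjusted p = 0.00292 and 0.00415). These 3 calls held in all 29 alternatives, whereas that of Oasl2 was lost in 21 of 28. No alternative used the second Xaf1 set alone, in which 129S1/ImJ, at 4.17, was not the lowest strain. Without mouse 3 of this strain 3 members were called and without mouse 1 there were 4. The Oas3 and Ifi27 calls were lost without either of these mice, that of Usp18 without mouse 3 and that of Oas1a without any of the 3 mice of the strain.

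C57Bl/6J showed the reverse, with 6 members higher (background 3.87%) and 0 lower (background 1.93%, and 0 lower at an unadjusted limma p under 0.05). Irf7 was higher by 3.16 ± 0.32 (adjusted p = 1.8e-05) and Oasl2 by 2.09 ± 0.22 (adjusted p = 2.8e-05). In the mouse averages neither overlapped with the mice of the other strains. Both held in every alternative run, 29 for Irf7 and 28 for Oasl2. Ifit1 was higher by 1.27 ± 0.29, Xaf1 by 1.11 ± 0.29, Dtx3l by 0.86 ± 0.24 and Parp12 by 0.24 ± 0.06. In that order the calls were lost in 3 of 29, 13 of 29, 20 of 29 and 10 of 28 alternatives. These 4 were each lost without mouse 1 of the strain, and 2 members remained called in C57Bl/6J when this mouse and mouse 3 of 129S1/ImJ were both left out. In the second Xaf1 set C57Bl/6J had the lowest strain mean, 3.42, and with all Xaf1 sets averaged the difference changed sign. Other single mice mattered too: without mouse 3 of C57Bl/6J itself, 3 members were called. The same number was called without mouse 3 of A/J, mouse 2 of C3H/HeJ or mouse 1 of FVB/NJ.

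FVB/NJ had 3 members lower (background 0.995%) and 0 higher (background 2.76%, and 0 at an unadjusted limma p under 0.05). Irf7 was lower by 3.13 ± 0.32 and Ifit1 by 1.76 ± 0.29, in all 29 alternatives, and Parp12 by 0.24 ± 0.06, a call lost in 15 of 28. Up to 7 members were called without mouse 3 of 129S1/ImJ and 5 without mouse 2 of C57Bl/6J. At an unadjusted limma p under 0.05 there were 11 lower members.

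C3H/HeJ had 3 members higher (background 0.751%), Irf7 by 1.98 ± 0.32, Oas1a by 0.47 ± 0.09 and Parp12 by 0.37 ± 0.06, and 1 lower (background 0.635%), Ifit2 by 1.23 ± 0.27. The Ifit2 call was lost in 15 of 29 alternatives, 10 of them with 1 mouse left out. Without mouse 3 of the strain 1 member was called and without mouse 1 there were 2. A/J had 1 member higher (background 1.55%), Ifi27 by 1.73 ± 0.42 (adjusted p = 0.0346), and 0 lower (background 1.69%, 1 at an unadjusted limma p under 0.05). The Ifi27 call in A/J was lost without any 1 of its 3 mice and without any 1 of 6 mice of other strains, and 2 members were called without mouse 2 of 129S1/ImJ. In DBA/2J limma called 0 higher (background 1.03%) and 0 lower (background 1.11%), with 3 higher and 0 lower at an unadjusted p under 0.05. In sign alone, 24 of 30 members lay above the mean of the other strains in C57Bl/6J, 22 in C3H/HeJ, 15 in DBA/2J, 12 in A/J, 10 in 129S1/ImJ and 6 in FVB/NJ. The median differences were 0.21, 0.04, -0.0045, -0.03, -0.10 and -0.19 in that order, and those over all tested probe sets lay between -0.01 and 0.01.

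Mice of 1 strain also differed together over the 10 members called by the F test. Mouse 1 of A/J had the highest value of its strain for 9 of the 10, mouse 1 of C57Bl/6J for 8 and mouse 2 of FVB/NJ for 8. Mouse 2 of C57Bl/6J had the lowest value for 9, and in 129S1/ImJ mouse 2 was highest for 7 and mouse 3 lowest for 7. These counts were not set beside those of all probe sets. The 95th percentile was the highest of its preparation in mouse 1 of C57Bl/6J (5.70 in whole, 6.84 in GLOBINclear RNA). In both preparations mouse 1 of A/J and mouse 2 of 129S1/ImJ had the highest of their strains. Mouse 2 of FVB/NJ had it in whole RNA only, and mouse 2 of C57Bl/6J was not lowest. Whether this brightness bears on the counts was not tested. The mean of the standardised levels over all tested members was highest in mouse 1 of C57Bl/6J (0.92) and lowest in mouse 3 of 129S1/ImJ (-0.89). Arrays of both mice were among those that correlated least within their group. With both left out, 12 members differed between strains, and 9 of the 10 were among them. Oas3 was then lost (adjusted p = 0.0548) and Irf9, Parp9 and Ifi35 were gained. The part of these mice in the single results was not tested beyond leaving them out.

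The second comparison asked how globin mRNA removal changed the measured levels of the members within mice. On the deposited scale 18 of 30 members (60%) were higher in GLOBINclear RNA (background 39.4%) and 8 (26.7%) lower (background 47.6%), by limma with the mouse as a block. The median change was 0.34 over the members and -0.05 over all tested probe sets. The largest rises were those of Ifit1, by 2.08 ± 0.16 (SE, n = 18 mice), Ifi27 by 1.89 ± 0.12, Dtx3l by 1.88 ± 0.14, Irf7 by 1.85 ± 0.11, Samd9l by 1.83 ± 0.10 and Oas3 by 1.81 ± 0.29. The first 5 rose in 18 of 18 mice and Oas3 in 16. Ifit1 went from a median of 4.09 (2.66 to 5.77) in whole RNA to 6.53 (2.92 to 7.73). Samd9l went from a median of 3.13 (2.45 to 4.72) to 5.19 (4.15 to 6.11), and only mouse 1 of C57Bl/6J, at 4.72 in whole RNA, reached the range of the GLOBINclear arrays. Ifi35, Usp18, Ifit2 and Xaf1 also rose by more than log2 1, by 1.53, 1.52, 1.39 and 1.02.

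The falls were small. Rtp4, a chaperone of receptors that is itself induced by interferon, fell by 0.38 ± 0.06, Eif2ak2 by 0.35 ± 0.06, Rsad2 by 0.23 ± 0.02 and Cmpk2 by 0.17 ± 0.05. Rsad2 and Eif2ak2 were lower in 18 of 18 mice, Rtp4 in 17 and Cmpk2 in 15. The other Rsad2 sets went in different directions. That with a mean level of 12.89 changed by -0.19, and that with a mean level of 12.64 by 0.08 (limma, adjusted p = 0.0441). With all Rsad2 sets averaged the change was -0.11. Stat2, Parp14, Mx1 and Dhx58 fell by 0.16, 0.15, 0.11 and 0.10, all from levels close to 3. Isg20 did not change measurably (0.00 ± 0.05), nor did Ddx58 (0.02 ± 0.04), Ifih1 (0.15 ± 0.10) and Bst2 (0.17 ± 0.09) pass the test.

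The size of these changes depended on the scale. With all 36 arrays brought to 1 distribution by quantile normalization, the rise of Ifit1 was 1.23, that of Irf7 0.90, of Ifi27 0.76 and of Oas3 0.63, while Ifit2 and Xaf1, at 0.04 and 0.16, no longer passed. Centred instead on the hybridization spike-ins, controls added after labelling, the median of all probe sets shifted to 2.03 and all 30 members were called higher. Of the member calls 69.2% were in the higher direction on the deposited scale, 80.8% with median centring, 66.7% with quantile normalization over all arrays and 100% with spike-in centring. The same shares over all probe sets were 45.3%, 52.6%, 37.7% and 99.9%, so the spike-in value says nothing about the members. For Rtp4 and Parp14 the mean of all their probe sets was higher in GLOBINclear RNA (0.16 and 0.0731), so their fall also rested on the chosen set.

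**Figure D3:**
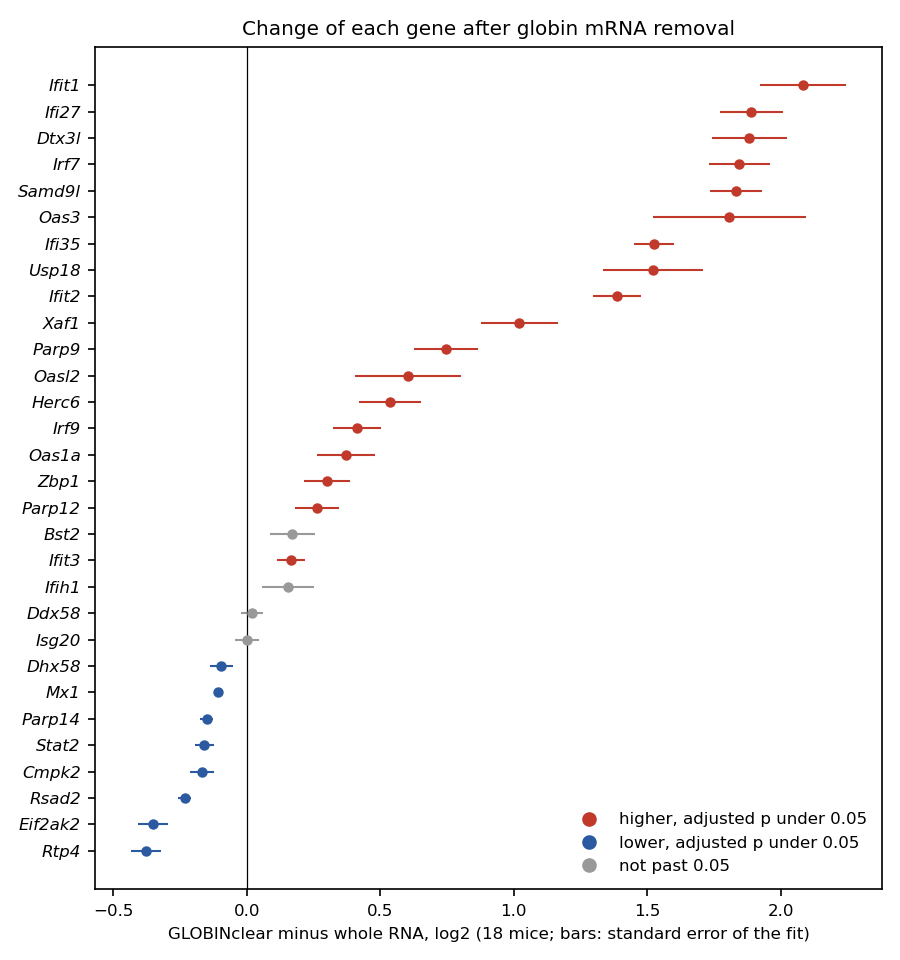
Change of each tested member after globin mRNA removal, as GLOBINclear minus whole RNA on the deposited log2 scale, with the standard error of the fit over 18 mice; colours mark the direction of calls at an adjusted p under 0.05. The 6 largest rises lie between 1.81 and 2.08, and no fall exceeds 0.38 in size. Under spike-in centring every change is positive.

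The third comparison asked whether this change differed between strains. It did for 3 of 30 members (10%, background 2.44%): Oasl2 (adjusted p = 0.000121), Usp18 (0.0275) and Rtp4 (0.0306). In C57Bl/6J, Oasl2 went from 5.35, 3.40 and 4.28 in whole RNA to 7.13, 5.60 and 6.55 in GLOBINclear RNA. In C3H/HeJ it went from 3.15, 3.34 and 3.14 to 4.23, 4.95 and 4.50, whereas 129S1/ImJ had 3.15, 3.02 and 3.09 before and 2.84, 2.88 and 2.84 after. The mean changes were 2.09 ± 0.27 (SD, n = 3), 1.35 ± 0.26 and -0.24 ± 0.08. A strain difference in Oasl2 was thus small in whole RNA outside C57Bl/6J, where 4 of the other 5 strains lay between 3.02 and 3.20 in each mouse.

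Usp18 showed a like split. Its mean change was 2.32 ± 0.62 in C3H/HeJ, 2.16 ± 0.36 in A/J, 1.90 ± 0.36 in DBA/2J and 1.68 ± 0.32 in C57Bl/6J, but 0.60 ± 0.66 in FVB/NJ and 0.47 ± 0.49 in 129S1/ImJ. In whole RNA its strain means lay between 2.61 and 3.11, close to the array medians. In GLOBINclear RNA its values were 3.17, 3.56 and 2.53 in 129S1/ImJ and 3.19, 4.08 and 2.75 in FVB/NJ, all below the 4.38 to 5.95 of the other 12 mice. Whether the lower end of the scale bears on this split was not tested. Rtp4 moved the other way, by -0.65 ± 0.06 in FVB/NJ and -0.62 ± 0.13 in 129S1/ImJ, but by -0.09 ± 0.19 in DBA/2J. This holds for the chosen Rtp4 set only, since the second set rose by 0.70 over all mice (limma, adjusted p = 4.93e-05). Among 30 alternatives the interaction was called in 29 for Oasl2, in 21 for Usp18 and in 15 for Rtp4. Only Oasl2 was called without mouse 1 of 129S1/ImJ or without mouse 3 of FVB/NJ.

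**Figure D4:**
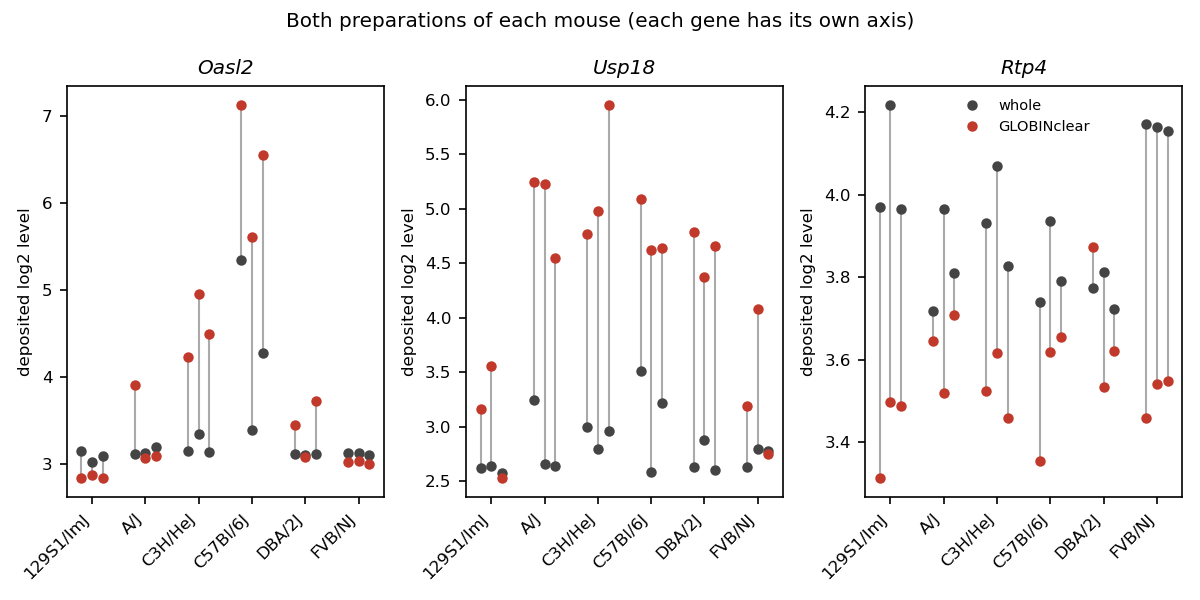
Whole RNA (dark) and GLOBINclear RNA (red) log2 levels of Oasl2, Usp18 and Rtp4, with a line joining both arrays of each mouse and a separate axis per gene. The lines are long and upward for Oasl2 in C57Bl/6J and C3H/HeJ and short in 129S1/ImJ and FVB/NJ, while the downward lines of Rtp4 are longest in the last-named strains.

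The rest of the interferon pathway was followed through lists of genes outside the members. Of the interferon genes themselves, 4 of 10 on the array were bright enough to be tested, and 1 of the 4, Ifna1, passed the strain F test on mouse averages (adjusted p = 0.0386), where 11.4% of all probe sets passed. Its probe set is of a type that can also bind related sequences. In whole RNA Ifna1 ranged from 3.38 ± 0.22 in C57Bl/6J to 5.27 ± 0.63 in C3H/HeJ, and in GLOBINclear RNA its strain means lay between 2.74 and 2.99. Neither preparation passed on its own (adjusted p = 0.0633 and 0.743). Ifna1 fell by 1.44 ± 0.17 after globin removal, in 18 of 18 mice (limma, adjusted p = 1.64e-07). Among receptors and Janus kinases 3 of 8 tested genes differed between strains. Ifnar2, a subunit of the type I receptor, had 6.21 ± 0.27 in 129S1/ImJ, below every mouse of the other strains, whose means were 7.52 ± 0.24 to 8.81 ± 0.25 (adjusted p = 6.2e-05). Its partner Ifnar1 lay at 3.69 to 3.81 in all strain means and did not pass (adjusted p = 1). Il10rb, shared with the interferon lambda receptor, and the kinase Jak2 were highest in C57Bl/6J, at 6.16 ± 0.18 and 6.43 ± 0.14.

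Of the STAT and IRF factors outside the members 1 of 8 (12.5%) passed on mouse averages, near the 11.4% of all probe sets. It was Irf1, an activator that is itself induced by interferon gamma. Its level was 4.57 ± 0.17 in 129S1/ImJ, above every mouse of the other strains, and 3.32 ± 0.20 in A/J (adjusted p = 0.00563). Nucleic acid sensing adaptors gave 1 of 12 (8.33%), below that share. It was Myd88, which carries Toll-like receptor signals and was highest in 129S1/ImJ at 4.13 ± 0.85 (limma F test, adjusted p = 0.049). Negative regulators gave 3 of 9, among them Socs3, a feedback inhibitor of Janus kinases, at 5.36 ± 0.92 in 129S1/ImJ against 3.87 ± 0.11 in A/J. Samhd1, a nucleotide hydrolase, and the phosphatase Ptpn11 also passed, with A/J lowest in both. A further list of interferon-stimulated genes gave 11 of 29 (37.9%, beside 11.4% of all probe sets). Sp100, a nuclear body protein, had 3.90 ± 0.16 in FVB/NJ and 4.29 ± 0.29 in 129S1/ImJ, against 6.56 ± 0.45 in A/J and 6.77 ± 0.43 in C3H/HeJ (adjusted p = 1.5e-05). Trafd1, a feedback regulator of innate signalling, and the antiviral deaminase Apobec3 were highest in C57Bl/6J, at 5.52 ± 0.27 and 3.93 ± 0.49. Of the others called, Slfn1, Slfn2 and Ube2l6 were highest in 129S1/ImJ, Lgals3bp, Ly6e, Helz2 and Tdrd7 in C57Bl/6J, and Slfn4 in C3H/HeJ. The mean level of the 29 genes was highest in C57Bl/6J (4.84) and lowest in FVB/NJ (4.29) and A/J (4.37). In 129S1/ImJ it was 4.65, so this list was not low there as the called members were.

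On mouse averages, 100% of platelet markers, 57.1% of B cell and 55.6% of reticulocyte markers passed the strain F test. Of each other list of cell type markers at most 16.7% passed. Among all probe sets 11.4% passed, and 39.2% of those above a mean of log2 4. The median levels of the platelet, reticulocyte and B cell markers were 10.46, 6.88 and 4.98, against 3.41 over all tested probe sets. The mean level of the 8 platelet markers ranged from 9.59 to 9.66 over the 129S1/ImJ mice, from 10.46 to 11.04 over the FVB/NJ mice and from 10.46 to 11.12 over the C57Bl/6J mice. The ranges of FVB/NJ and C57Bl/6J thus overlapped. Reticulocyte markers gave 5 of 9, with mouse means of 7.97 to 9.05 in 129S1/ImJ, 8.25 to 8.76 in C57Bl/6J and 9.32 to 9.96 in A/J. Neutrophil markers gave 1 of 8 on mouse averages (5 of 8 at an unadjusted limma p under 0.05). In GLOBINclear RNA alone 4 of 8 (50%) passed, where 11.2% of all probe sets did. Their mouse means were 5.25 to 8.00 in 129S1/ImJ and at most 5.73 in the other strains. B cell markers gave 4 of 7. Their mouse means were 3.85 to 4.75 in 129S1/ImJ, 3.94 to 4.70 in FVB/NJ, 4.51 to 5.81 in C57Bl/6J and 5.31 to 5.95 in DBA/2J. Monocyte markers gave 1 of 9, T cell markers 1 of 9, markers of plasmacytoid dendritic cells, the main producers of type I interferon, 1 of 6, and NK cell markers 0 of 5 (1 of 5 at an unadjusted limma p under 0.05). The dendritic cell markers had mouse means of 3.63 to 4.08 in 129S1/ImJ, 3.85 to 4.53 in C57Bl/6J and 4.13 to 4.29 in DBA/2J, where their strain mean was highest (4.21). The part of cell composition in the strain differences of the members was not tested.

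As a description, the tested genes outside the members that followed the members' mean standardised level most closely over the 18 mice were Tspo2 (Pearson r = 0.83), Tdrd7 (0.81), Rhoj (0.79), Hspa4l (0.78), Mark3 (0.78), Tpm1 (0.77), Ypel3 (0.76), Dut (0.76), Ifitm3 (0.75) and Usp45 (0.75). The points share strain and array, so these values describe likeness over 18 mice of 6 strains. Tdrd7 and Ifitm3 are known interferon-induced genes.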

How the data were processed

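RNA from the blood of 18 mice was measured on 36 Affymetrix arrays. The deposited values were log2 expression values, 1 per probe set and array (45101 probe sets) on a scale inferred from their range. GCRMA, MAS5 and affy are named, without role or order, in the submitters' processing notes. No source used here says if whole and GLOBINclear arrays were normalized in 1 run. Controls (64 sets) were set aside, and sets with a mean above the median of all (log2 2.89) were tested. Probe sets were named from GEO's platform annotation (34945 carried 1 symbol, 932 several, 9160 none). Fits used limma 3.58.1 in R 4.3.3 (data.table version 1.17.8; eBayes with trend; Benjamini-Hochberg over 22518 sets, threshold 0.05), and figures matplotlib 3.10.9 in Python 3.11.15. The globin effect had the mouse as a block, since the labels call the samples paired; both arrays of a mouse deviated from their group means with a mean r of 0.39. Strains were compared on mouse averages, and the interaction on within-mouse differences. The scripts were tested on simulated data. The members, lists and tests were chosen with earlier results of these data known. The text gives the values of up to 10 members with the smallest strain F test p, of members called in a strain with at least log2 1, of those with an interaction, and of the 6 largest rises and 4 largest falls. It adds up to 3 called genes of each pathway list, Irf1, Ifnar1 and Ifnar2, and 10 genes most like the members. Alternatives were other scalings, filters, probe set rules, blocks and leaving out each mouse. Among the 30, dropping the mouse block cannot alter the strain F test on mouse averages. Nor can a block for the replicate number alter the interaction test.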

Additional observations from a re-analysis of the deposited data

Results flagged for a closer look

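The change after globin removal differed between strains for 3 members in limma's interaction test: Oasl2 (adjusted p = 0.000121), Usp18 (adjusted p = 0.0275) and Rtp4 (adjusted p = 0.0306). Oasl2 changed by 2.09 ± 0.27 (SD, n = 3) in C57Bl/6J and by -0.24 ± 0.08 in 129S1/ImJ. Usp18 changed by 2.32 ± 0.62 in C3H/HeJ and by 0.47 ± 0.49 in 129S1/ImJ, from whole-RNA strain means close to the array medians (2.61 to 3.11 over the strains). Rtp4 changed by -0.65 ± 0.06 in FVB/NJ and by -0.09 ± 0.19 in DBA/2J in the chosen set, whereas its second set rose by 0.70 over all mice.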

How the results depend on the processing

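The number of members that differed between strains was 7 to 13 in mouse averages and 7 to 14 in GLOBINclear RNA over all alternatives, against 10 in each. In whole RNA it was 5 with only probe sets above log2 4. With spike-in centring 30 members were higher and 0 lower after globin removal, 1 member was called in C3H/HeJ and 2 in C57Bl/6J. The filter at log2 4 left 9 higher, 1 lower, 0 with an interaction, 5 called in 129S1/ImJ, 2 in A/J and 1 in DBA/2J. No filter left 1 interaction, 5 calls in 129S1/ImJ, 0 in A/J and 3 in C57Bl/6J. Median centring left 5 lower, quantile normalization within preparations gave 5 interactions, and quantile normalization over all arrays gave 2 calls in A/J. Averaging all probe sets of a gene gave 4 lower, 2 calls in A/J, 1 in DBA/2J and 6 in FVB/NJ. Leaving out both mice named in the report, a choice made after seeing the data, gave 3 calls in A/J, 2 in C57Bl/6J, 1 in DBA/2J and 8 in FVB/NJ.

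With 1 mouse left out, the members higher after globin removal numbered 18 to 19, those lower 7 to 8, and those with an interaction 1 to 4. Those differing between strains numbered 2 to 5 in whole RNA, 9 to 13 in GLOBINclear RNA and 9 to 11 in averages. Calls ranged from 3 to 10 in 129S1/ImJ, 0 to 2 in A/J, 1 to 6 in C3H/HeJ, 3 to 7 in C57Bl/6J, 0 to 0 in DBA/2J and 2 to 7 in FVB/NJ.

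Under spike-in centring the sign turned positive for Stat2 (1.92), Dhx58 (1.98), Eif2ak2 (1.73), Mx1 (1.97), Rsad2 (1.84), Cmpk2 (1.91), Parp14 (1.93) and Rtp4 (1.70). With all probe sets averaged, Parp14 (0.0731) and Rtp4 (0.16) turned positive and Xaf1 in C57Bl/6J turned to -0.21. The shift of the scale itself accounts for the spike-in values. In the averages, the second sets of Parp14 and Rtp4 rose, by 0.30 and 0.70, and that of Xaf1 had its lowest mean in C57Bl/6J (3.42). Why the sets of a gene differ was not tested.

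Replicate numbers were shared across strains, but samples with 1 number did not deviate together (mean r = 0.05 over 45 pairs, 19 negative). With the number as a replicate block 9 members differed between strains in averages and 0 were called in A/J. Without the mouse block, 18 members were higher and 8 lower. Signals near the ends of the scale and 3 mice per strain limit what can be detected.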
